A study of Mus musculus with 7 samples.

Results

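The enzymes, transporters and regulatory subunits that carry glucose and glycogen to lactate in skeletal muscle were examined for RNA polymerase II (RNAP2) and for the clock proteins BMAL1 and REV-ERBα in mouse gastrocnemius, a calf muscle made mostly of fast fibres. The 38 genes were chosen by name from 21951 protein-coding genes of the mouse annotation, for their place in glycolysis, glycogen storage, lactate export and the glycerol phosphate shuttle. The rule used no measured value, but the genes were chosen with earlier results of these data known. The data come from chromatin immunoprecipitation followed by sequencing (ChIP-seq), in which an antibody recovers a protein with the DNA it lies on. Muscle was taken from wild-type male C57BL/6J mice, 5 months old, fed chow and kept in alternating light and dark of equal length. BMAL1 and RNAP2 were mapped at Zeitgeber time (ZT) 4, that is 4 h after lights on, and REV-ERBα was mapped at ZT 8, each with 2 biological replicates. The BMAL1 antibody was a commercial one, the REV-ERBα antibodies came from an academic laboratory, and the RNAP2 antibody was a commercial monoclonal one. Whole muscle was used, so nuclei of fibres and of other cells were read together, and a smaller share of nuclei cannot be told apart from less protein per nucleus. Factor and time of day also cannot be told apart, since each factor was mapped at a single time.

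In glycolysis, glucose is phosphorylated, rearranged and split into trioses, which are oxidised to pyruvate and, in a working fast fibre, reduced to lactate and exported. Glycogen is the fibre's store of glucose, built by glycogen synthase and branching enzyme, and broken down by glycogen phosphorylase under the control of phosphorylase kinase and of protein phosphatase 1. BMAL1 is the activator of the circadian clock and binds E-boxes with its partner CLOCK. REV-ERBα is a repressor, itself a target of BMAL1, that binds nuclear receptor elements.

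For every sample the authors deposited a list of peaks, that is of stretches where MACS2 found more reads than in input DNA, with a p-value of at most 0.05. Each peak comes with its summit, its fold enrichment relative to input and a −log10 p, which grows as a peak stands further above input. A region was the merger of overlapping peaks of both replicates of a factor, and it counted as present only when both lists contributed. Where BMAL1 and REV-ERBα peaks were merged together and 3 or more of these 4 lists contributed, the result was called a shared site. A gene had a region when the region touched the gene or lay within 10 kb of any of its annotated transcription start sites (TSSs). As the strength of a region the smaller of the −log10 p values of its replicates was taken. The summit of a region was that of its higher replicate. How many reads lie behind a given peak is unknown, and no test was made, so counts and values are given beside the same for other genes. An exact permutation test with 2 replicates per factor cannot pass a 0.05 threshold.

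The lists held 28881 to 177669 peaks. Replicate 2 of BMAL1 stood apart with 177669 peaks against 34737 in replicate 1, and its median −log10 p was 1.87. RNAP2 was in keeping with the tissue label. All 10 fast-fibre markers had an RNAP2 region, at a median strength of 28.6. Among markers of other cells, the endothelial genes Pecam1 and Cdh5, the leukocyte gene Ptprc, the fibroblast gene Pdgfra, the satellite cell gene Pax7, the fat cell genes Adipoq and Plin1 and the smooth muscle gene Myh11 had none. The macrophage genes Csf1r and Cd68 had 2.95 and 1.99, and 27.7 and 9.47, in replicates 1 and 2, and the collagen genes Col1a1 and Col3a1 had 16.1 and 5.52, and 3.97 and 1.45. The region of Cd68 was nearest to the start of Eif4a1, and none of Cd68 was covered. Chromosome X gave 0.0547% to 0.41% of the peaks of a list, and 11.1% of its other genes had an RNAP2 region, which limits Pgk1, Pfkfb1 and Phka1.

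RNAP2 lay on most of the pathway. A region present in both replicates was found at 32 of the 38 genes, against 41% of the other 21912 protein-coding genes. The strength of the highest region per gene had a median of 9.89 over these 32 genes, with a range of 2.43 to 59.4, and of 4.46 over the 8994 other genes with an RNAP2 region. Within these same regions, the values of replicate 1 had medians of 19.7 and 7.62, and those of replicate 2 had medians of 10.1 and 4.73. RNAP2 regions also covered more of the gene, with a median of 5.33% of its length against 1.15% for the other genes, although the genes were of similar length (medians 21661 bp and 24310.5 bp). The pathway was thus marked by a polymerase signal above the median of other genes in each replicate.

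**Figure D1:**
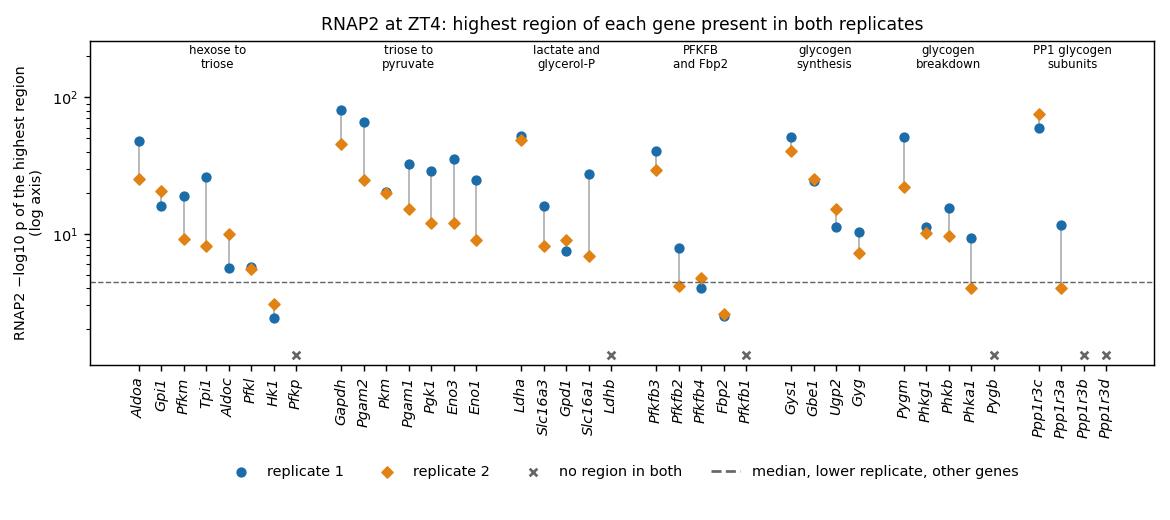
RNAP2 −log10 p (log axis) of the highest region of each of the 38 genes, by role, with replicate 1 as circles and replicate 2 as diamonds joined by a line. Crosses mark the 6 genes without a region in both replicates, and the dashed line is the median strength of the other genes, 4.46, which 26 of the 32 genes exceeded in their lower replicate.

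Among the steps from hexose to triose, 7 of 8 genes had an RNAP2 region. Aldoa, the muscle aldolase that splits fructose bisphosphate, was highest at −log10 p of 47.5 and 25.3 in replicates 1 and 2. Gpi1, the isomerase of glucose 6-phosphate, followed at 16.0 and 20.4, and Tpi1, which interconverts the trioses, had 26.0 and 8.20. Gpi1 was higher in replicate 2 whereas Aldoa and Tpi1 were higher in replicate 1. Pfkm, the muscle phosphofructokinase, had 19.0 and 9.19 in a region with summits in an intron. They lay 6448 bp and 3526 bp past a start site inside the gene, in replicates 1 and 2. At that internal start site Pfkm had 10.4 and 8.12. Neither region was at the 5′ end of the gene. The replicate 2 summit of the intron region lay within the promoter of a further internal start in RefSeq, chr15:98111810-98112109. Pfkl, the liver phosphofructokinase, had 5.69 and 5.52, and Pfkp, the platelet form, had peaks of 2.50 and 2.60 that did not overlap. Hk1, a hexokinase of many tissues, had 2.43 and 3.05, the lowest strength of the 32 genes.

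All 7 genes from triose to pyruvate had a region. Gapdh, the triose phosphate dehydrogenase, had 80.4 and 45.3, with fold enrichments over input of 26.7 and 15.7. Pgam2, the muscle phosphoglycerate mutase, had 65.6 and 24.9. Pkm, the pyruvate kinase, had 20.4 and 20.1. Of the forms found in most tissues, Pgam1 had 32.4 and 15.1 and Eno1 had 24.8 and 9.02. At 3 of these genes RNAP2 extended over most or all of the gene. It covered 100% of Pgam2, 98.8% of Eno3, the muscle enolase, and 88.8% of Gapdh, against 1.54% to 6.49% of Pgk1, Pgam1, Pkm and Eno1. Pgk1, phosphoglycerate kinase, had 28.6 and 12.0 in spite of its place on chromosome X. Reads that map to several places were removed by the authors, and Gapdh, Pgk1, Ldha, Aldoa, Eno1 and Pgam1 are genes with processed copies in the genome, so signal over their exons may be understated. How far it was understated was not tested.

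For lactate and its export, Ldha, the lactate dehydrogenase of fast muscle, had 51.9 and 48.3, with its replicates close together. Slc16a3, the lactate exporter MCT4, had 15.9 and 8.12, and Gpd1, the glycerol 3-phosphate dehydrogenase, had 7.43 and 9.04. Slc16a1, the lactate transporter MCT1, had 27.3 in replicate 1 and 6.84 in replicate 2, a wide gap between replicates. Ldhb, the dehydrogenase of heart and slow muscle, had peaks of 7.49 and 1.45 that did not meet in a region.

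Of the enzymes that set fructose 2,6-bisphosphate, Pfkfb3 stood out with 40.6 and 29.6 at a start site inside the gene. Pfkfb2 had 7.90 and 4.15 in a region nearest to the start of Yod1, and Pfkfb4 had 10.3 and 3.97 at its start and 3.97 and 4.73 in a region over an exon inside the gene. Fbp2, the muscle fructose bisphosphatase, had 2.50 and 2.60. Pfkfb1, on chromosome X, had a peak in replicate 1 alone. Apart from Pfkfb3 the genes of this group thus lay below the median strength of other genes.

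All 4 genes of glycogen synthesis were marked. Gbe1, the branching enzyme, had 24.5 and 25.3, Ugp2, which makes UDP-glucose, had 11.1 and 15.3, and Gyg, the glycogenin primer, had 10.2 and 7.22. The highest region in the window of Gys1, the muscle glycogen synthase, had 51.0 and 40.8, but its nearest TSS was that of the ferritin gene Ftl1. At its own start Gys1 had 11.1 and 10.7, so the value plotted for Gys1 is nearer to a neighbour.

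In glycogen breakdown, Pygm, the muscle phosphorylase mutated in McArdle disease, had 51.0 and 21.9 and was covered over 35.7% of its length. The phosphorylase kinase subunits were lower. At their own starts Phkb had 15.5 and 9.58, Phkg1 had 8.34 and 6.69, and Phka1 on chromosome X had 9.30 and 3.97. The highest region in the window of Phkg1, at 11.2 and 10.2, was nearest to the start of Chchd2. The start of Phkb is closest to that of the divergent gene Itfg1, so that signal cannot be given to either gene. Pygb, the brain phosphorylase, had peaks of 3.97 and 2.65 that did not overlap.

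The highest RNAP2 strength of all 38 genes, that is the highest value in the lower replicate, belonged to a phosphatase subunit. Ppp1r3c, which targets protein phosphatase 1 to glycogen, had 59.4 and 75.1 at its start, with fold enrichments of 19.9 and 23.2, and 99.8% of the other genes with a region were lower. In replicate 1 Gapdh and Pgam2, at 80.4 and 65.6, were above it. Ppp1r3a, the subunit of striated muscle, had 11.6 and 3.97. Ppp1r3b, the liver subunit, had peaks of 2.27 and 2.60 at different places, and Ppp1r3d had a single peak of 1.45. Together with Pfkp, Ldhb, Pfkfb1 and Pygb these made up the 6 genes without a region in both replicates.

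The muscle isozymes were set beside their paralogs in 8 pairs, as a description. RNAP2 covered more of the muscle isozyme in 8 of 8 pairs. Pgam2 was covered over 100% and Pgam1 over 4.48%, Eno3 over 98.8% and Eno1 over 6.49%, and Slc16a3 over 29.4% and Slc16a1 over 2.21%. At the start of the gene the picture was less uniform. In 4 pairs the paralog had no region with its summit within 1 kb of a TSS, namely Pfkp, Aldoc, Ldhb and Pygb. In the other 4 pairs it had one. Eno1 had 24.8 and 9.02 at its start against 22.4 and 11.4 for Eno3, and the replicates put the pair in opposite orders. Slc16a1 was higher than Slc16a3 in replicate 1 and lower in replicate 2. Eno3 and Eno1 thus differed in how far RNAP2 extended, while its height at their starts can be compared only in replicate 1. Aldoc had a region in its window, at 5.65 and 9.996, but none of the gene was covered and the nearest TSS was that of Pigs. Covered shares depend on gene length, and Pgam2 is 2094 bp long against 6738 bp for Pgam1.

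**Figure D2:**
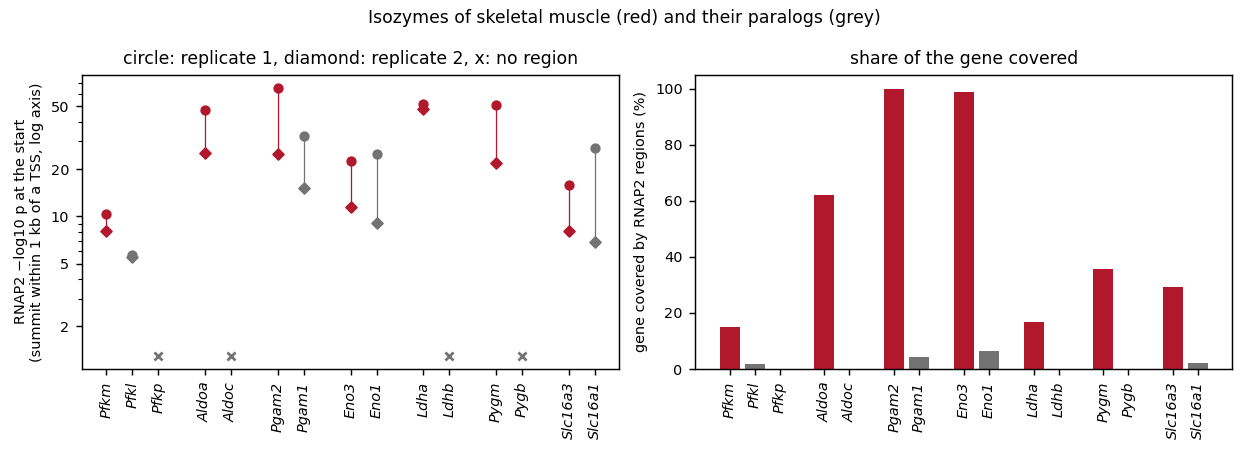
Left, RNAP2 −log10 p (log axis) of the region with the summit of its higher replicate within 1 kb of a TSS. Replicate 1 is shown as circles and replicate 2 as diamonds, with crosses where there is no such region. Right, percent of the gene covered by RNAP2 regions, as bars from 0; muscle isozymes (red) were covered more than paralogs (grey) in 8 of 8 pairs, while Eno3 with Eno1 and Slc16a3 with Slc16a1 overlapped at the start.

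REV-ERBα regions were present at 11 of the 38 genes, all of which had RNAP2, that is 34.4% of the 32 genes with RNAP2 against 8.39% of the 8994 other genes with RNAP2. With a strength of at least 3 required, 8 of the 32 genes remained, against 4.98%. The 11 genes were Pfkm, Aldoa, Gapdh, Pgam2, Eno3, Slc16a3, Gpd1, Pfkfb3, Gys1, Pygm and Ppp1r3a, so each role group held at least 1. They are in large part the isozymes of muscle. None of the paralogs Pfkl, Pfkp, Aldoc, Pgam1, Eno1, Ldhb, Pygb and Slc16a1 had one, nor had Ldha. In single lists the pathway was closer to other genes. A REV-ERBα peak lay at 22 of the 32 genes in replicate 1, against 49.7%, and at 25 in replicate 2, against 52.6%.

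The 11 genes held 25 REV-ERBα regions. Of these, 17 lay on an RNAP2 region, that is 68%, against 32.9% of all 1263 REV-ERBα regions. These sets are unlike, since the 25 come from windows of genes that all had RNAP2 and the 1263 from anywhere in the genome. No share was read for windows of other genes with RNAP2. The summit was inside the gene for 17 and within 1 kb of one of its TSSs for 6, and the nearest TSS was that of the gene itself for 20. Only 3 regions, at Gapdh, Eno3 and Gys1, had a −log10 q of at least 1.3 in both replicates.

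**Figure D3:**
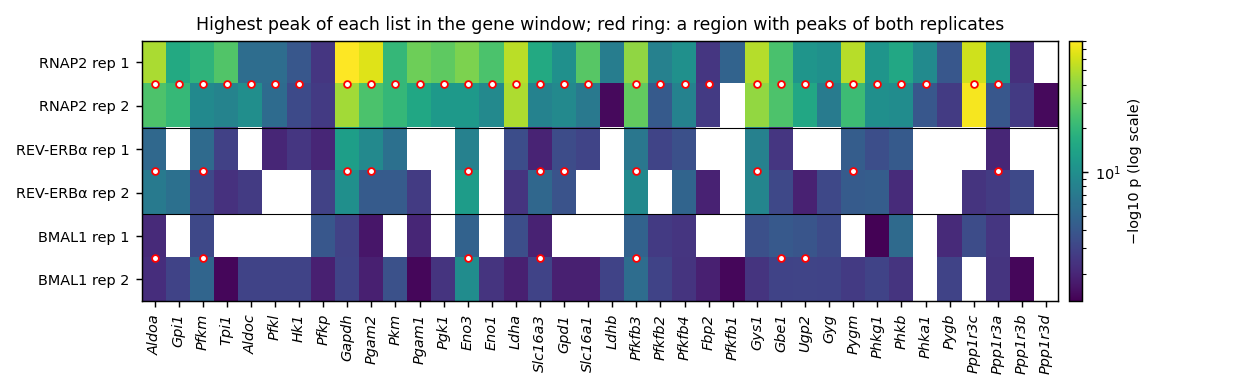
Highest −log10 p (colour, log scale) of each peak list in the window of each of the 38 genes, white where the list has no peak, with red rings where peaks of both replicates met in a region. Rings are present at 32 genes for RNAP2, 11 for REV-ERBα and 7 for BMAL1.

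Gapdh had the highest REV-ERBα region of the pathway. At chr6:125160620-125162121, just past the 3′ end of the gene and over an exon of the neighbouring gene Iffo1, −log10 p was 13.1 and 10.1, with fold enrichments of 5.59 and 4.87. A further region at the promoter, chr6:125164808-125167017, had 5.03 and 4.36. Both lay on RNAP2 regions, and the one past the gene was higher in each replicate.

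Eno3 showed the same layout. Its stronger region, chr11:70663276-70665089, lay past the 3′ end over an exon of Spag7, the gene next to it, with 7.99 and 12.6 and fold enrichments of 4.00 and 5.20. A weaker region inside the gene, chr11:70660708-70661786, had 3.57 and 6.34. Pgam2 had a single region, chr11:5799708-5801418, likewise past its 3′ end over an exon of Dbnl, with 9.0 and 4.21. At Gapdh, Eno3 and Pgam2 the TSS nearest to the summit was nonetheless one of the glycolytic gene. At Gapdh, 1124 bp away, and Eno3, 3267 bp away, it was an annotated start inside the gene and not its 5′ end. The start of Spag7 was nearer to the Eno3 summit than the 5′ end of Eno3.

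At Aldoa, a region at the start of the gene, chr7:126798859-126800268, had 4.88 and 6.57, and a broad one at the 3′ end, chr7:126792296-126797618, had 5.20 and 6.94. The replicate 2 summit of the latter was nearest to a TSS of Fam57b. Its replicate 1 summit, 1991 bp away, was nearest to that of Ppp4c. Pfkm had 5.17 and 1.81 in an intron, at chr15:98113072-98115889, where replicate 2 was near the calling cutoff.

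Pfkfb3 carried 9 of the 25 REV-ERBα regions, spread over chr2:11468193-11535923. Their strengths ran from 1.67 to 5.55. The highest single peak was in replicate 2 of the region at chr2:11483560-11486169, with 9.22 against 3.89 in replicate 1, and the region of highest strength, chr2:11475994-11482892, had 6.65 and 5.55. At 82645 bp Pfkfb3 is a long gene with 13 annotated TSSs and offers a wider window than the median of 34158 bp for the 32 genes.

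Gys1 had 7.99 and 8.44 in an intron, at chr7:45437388-45438285, with little difference between replicates. The nearest TSS, at 392 bp, was however that of Ruvbl2, which overlaps Gys1. A weaker region near Ftl1 had 1.72 and 4.62. At Pygm, 3 regions were found. The one at an internal start site, chr19:6392366-6392989, had 4.02 and 3.60, the one past the gene, nearest to Rasgrp2, had 4.40 and 4.21, and the one over the promoter had 3.32 and 1.69. The remaining regions were weaker. Gpd1 had 3.41 and 3.29 at its end, nearest to Cox14, Ppp1r3a had 1.97 and 1.69, and Slc16a3 had 1.94 and 1.40. When regions counted only for the gene with the nearest TSS, 9 of the 11 genes remained, without Gys1 and Gpd1. By the same rule 6.81% of 7036 other genes with RNAP2 had a REV-ERBα region.

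**Figure D4:**
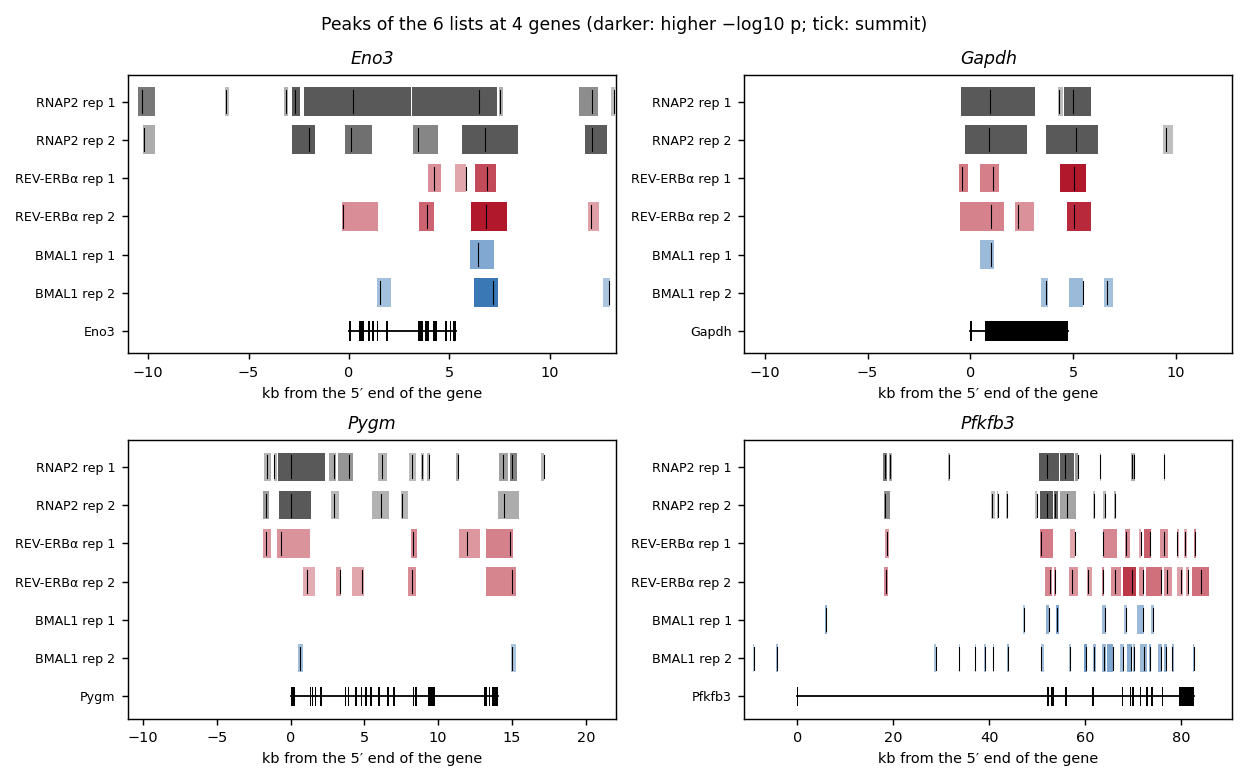
Peaks of the 6 lists at Eno3, Gapdh, Pygm and Pfkfb3, by distance in kb from the 5′ end of the gene, as boxes that are darker for a higher −log10 p, with a tick at the summit and exons of any transcript as black blocks. The strongest REV-ERBα peaks of Eno3 and Gapdh lie past the 3′ end on RNAP2 peaks, and at Eno3 BMAL1 peaks of both replicates lie there too.

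Of the 27 genes without a REV-ERBα region, 8 had a peak in each list at different places, 12 had a peak in a single list and 7 had none. This split was not read for other genes. Of the other genes with RNAP2, 49.7% had a REV-ERBα peak in replicate 1, 52.6% in replicate 2 and 8.39% a region. Ldha was in the first class, with highest peaks of 3.47 and 2.41. Pkm, also in it, had 5.95 just at its TSS in replicate 1 and 4.27 in replicate 2, without overlap. Ppp1r3c, the gene with the highest RNAP2 strength, had REV-ERBα peaks in replicate 2 alone, the higher at 2.41. The genes with no peak in either list were Pgk1, Eno1, Ldhb, Pfkfb1, Pygb, Phka1 and Ppp1r3d, of which Pgk1, Pfkfb1 and Phka1 are on chromosome X. A high RNAP2 value therefore did not always go with REV-ERBα.

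BMAL1 regions were present at 7 of the 38 genes, Pfkm, Aldoa, Eno3, Pfkfb3, Gbe1, Ugp2 and Slc16a3, that is 21.9% of the 32 genes with RNAP2 against 10.2% of other genes. Only Eno3 had a BMAL1 strength of at least 3, against 0.723% of other genes, and that single gene is too few to read a share from. In single lists, BMAL1 peaks lay at 19 of the 32 genes in replicate 1, against 48.3%, and at 30 in replicate 2, against 93.1%. Replicate 2 therefore had a peak at nearly every gene of either set.

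Eno3 had the strongest BMAL1 region of the pathway. At chr11:70663244-70664642 −log10 p was 4.74 in replicate 1 and 9.61 in replicate 2, with fold enrichments of 3.11 and 5.11. Its summits in the 2 replicates lay 718 bp apart. The region overlapped the REV-ERBα region past the 3′ end of the gene and an RNAP2 region. For scale, the 11 clock regulators all had BMAL1 regions, at a median strength of 8.80, against 4.74 for Eno3 and 1.87 to 2.98 for the other 6 genes.

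The other BMAL1 regions were weaker in their lower replicate. Pfkfb3 had 2 regions, each with 3.0 and 2.98. Pfkm had 3.19 and 1.87, Aldoa had 2.01 and 1.87 in a region nearest to Ppp4c, and Slc16a3 had 1.91 and 2.88. Gbe1 and Ugp2 had 3 and 2 regions, all in introns and all with 1.87 or 1.40 in replicate 2, and those of Gbe1 lay more than 59 kb from any of its TSSs. Gbe1 is the longest of the 38 genes, at 255768 bp. BMAL1 regions of other genes likewise went with a wide window, of 88123 bp in the median against 34959 bp for genes without one. Of the 11 BMAL1 regions of the pathway, 4 lay on an RNAP2 region, against 4.38% of all 2742 BMAL1 regions. These sets are likewise unlike, since the 11 come from windows of genes that all had RNAP2. Of the 11, 0 had a −log10 q of at least 1.3 in both replicates.

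Shared sites of BMAL1 and REV-ERBα were present at 9 of the 38 genes, that is 28.1% of the 32 genes with RNAP2 against 2.94% of other genes. They were Pfkm, Aldoa, Gapdh, Pgam2, Eno3, Pfkfb3, Gys1, Pygm and Slc16a3. Of these, Gapdh, Pgam2, Gys1 and Pygm had no BMAL1 region, and each of their shared sites held a peak of a single BMAL1 list. Pygm had BMAL1 peaks in replicate 2 alone, the highest at 2.60. All 4 lists had a peak at Pfkm, Eno3, 1 of 2 sites of Aldoa and 4 of 5 sites of Pfkfb3. At Eno3 the lowest of the 4 values was 4.74. At the shared site of Pgam2 BMAL1 had 1.68 in replicate 1 and no peak in replicate 2, whose peak of 1.87 lay elsewhere in the window. At Gapdh BMAL1 had 2.98 in replicate 2 alone at the site past the gene.

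REV-ERBα regions were more frequent where RNAP2 was stronger, so the shares were also read within classes of RNAP2 strength. Among the other genes, a REV-ERBα region was present at 5.58% with RNAP2 strength under 5, 8.66% from 5 to 10, 14.9% from 10 to 20, and 33.2% at 20 or more. Of the pathway, 1 of 6, 3 of 10, 1 of 6 and 6 of 10 genes had one in the same classes. The 10 genes in the top class were Ppp1r3c, Ldha, Gapdh, Gys1, Pfkfb3, Aldoa, Pgam2, Gbe1, Pygm and Pkm. Gys1 is in it through the region nearest to Ftl1, with 11.1 and 10.7 at its own start, and counts among the 6 through the REV-ERBα region nearest to Ruvbl2. In that class 6 genes also had a shared site, against 17.7%, and 3 had a BMAL1 region, against 17.7%. Of the 10 fast-fibre markers, 9 had a REV-ERBα region, 9 a BMAL1 region and 8 a shared site. The part of RNAP2 strength in these counts was not tested beyond the classes, and with 6 to 10 genes a class holds few genes.

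**Figure D5:**
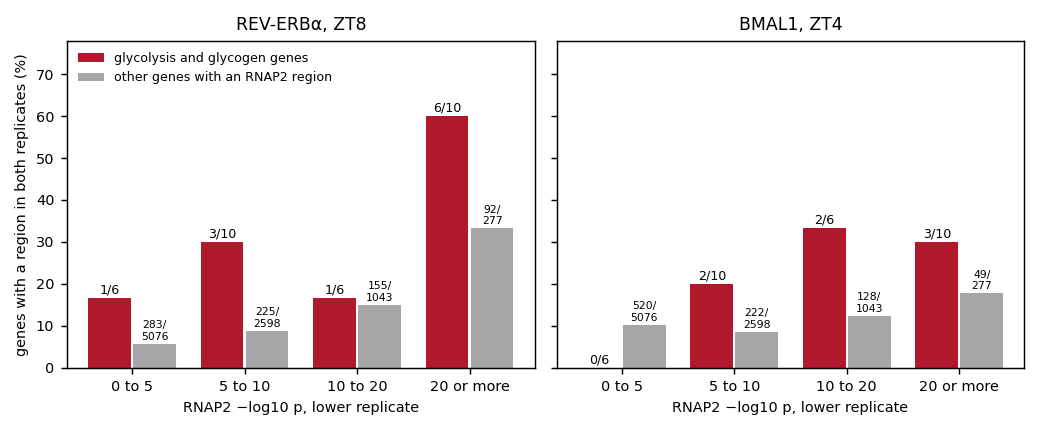
Percent of genes with a REV-ERBα region (left) or a BMAL1 region (right) in both replicates, by RNAP2 strength of the gene, for the 32 pathway genes with RNAP2 (red) and the 8994 other genes (grey), with the number of genes above each bar. The REV-ERBα share of the other genes climbs from 5.58% to 33.2% over the classes.

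The sequence at the summits was searched for the E-box CACGTG, the shorter ACGTG and the nuclear receptor element AGGTCA. It was also searched for the E-box of myogenic factors CAGCTG and the MEF2 consensus. Both strands were read, within 100 bp of the summit. Every CACGTG also holds ACGTG, but ACGTG without the leading C is not that E-box. Of the 25 REV-ERBα regions, 1 held CACGTG (3.4% of all REV-ERBα regions), 4 ACGTG (12%), 6 AGGTCA (13.1%), 7 CAGCTG (12.7%) and 2 the MEF2 consensus (4.28%). Of the 11 BMAL1 regions, 0 held CACGTG (2.55% of all BMAL1 regions), 1 ACGTG (8.02%), 1 AGGTCA (10.7%), 0 CAGCTG (7.08%) and 1 the MEF2 consensus (5.65%). With regions this few, these are descriptions of single sites.

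The region with CACGTG was an intronic one of Pfkfb3, chr2:11534885-11535923, with REV-ERBα at 2.82 and 3.79. It is printed to show both E-boxes with an AGGTCA and a CAGCTG. The upstream REV-ERBα region of an internal Pfkfb3 start follows, with repeated ACGTG, then that at the Aldoa start with ACGTG beside AGGTCA, and the Gys1 intron, where CAGCTG flanks a MEF2 match. Sequences are from the RefSeq genome GRCm38.p6, on the strand of the gene, in lower case with motif matches in capitals (the reverse complement where the match is on the other strand).
Pfkfb3, intron, chr2:11535512-11535712, minus strand: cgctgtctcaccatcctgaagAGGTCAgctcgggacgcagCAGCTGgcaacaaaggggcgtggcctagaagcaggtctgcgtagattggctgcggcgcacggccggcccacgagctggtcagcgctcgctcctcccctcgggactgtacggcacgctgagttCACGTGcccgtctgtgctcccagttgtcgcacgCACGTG
Pfkfb3, upstream of an internal start, chr2:11503218-11503318, minus strand: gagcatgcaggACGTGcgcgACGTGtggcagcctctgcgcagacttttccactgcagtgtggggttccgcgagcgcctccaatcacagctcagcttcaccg
Aldoa, start, chr7:126799320-126799420, minus strand: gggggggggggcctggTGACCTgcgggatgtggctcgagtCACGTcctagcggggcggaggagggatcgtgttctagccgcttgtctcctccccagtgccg
Gys1, intron, chr7:45437654-45437754, plus strand: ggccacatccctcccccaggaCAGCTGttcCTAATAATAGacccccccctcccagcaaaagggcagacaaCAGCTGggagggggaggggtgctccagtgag

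The BMAL1 region of Eno3, the strongest of the pathway, held none of the 5 motifs at its replicate 2 summit. This says only that these letters are not in this window. The replicate 1 summit, 718 bp away, was not searched. The replicate 2 window is shown beside the BMAL1 summit of Slc16a3, which held AGGTCA.
Eno3, past the 3′ end, chr11:70664314-70664414, plus strand: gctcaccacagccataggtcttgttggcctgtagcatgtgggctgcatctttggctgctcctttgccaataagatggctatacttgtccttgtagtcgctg
Slc16a3, intron, chr11:120952105-120952205, plus strand: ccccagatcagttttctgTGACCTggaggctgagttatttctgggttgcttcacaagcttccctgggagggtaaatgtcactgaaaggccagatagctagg

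Promoters, from 250 bases before to 50 bases after the RefSeq start, were at hand for 36 of the 38 genes, 54 promoters in all. CACGTG was in 9 of them, 16.7% against 7.15% of all 32851 promoters, and ACGTG in 24, 44.4% against 19.6%. AGGTCA was in 16.7% against 16.3%, CAGCTG in 27.8% against 16.3%, and the MEF2 consensus in 5.56% against 3.19%. The genes with CACGTG were Fbp2, Gyg, Ldha, Pfkfb2, Pfkfb3, Pfkm, Ppp1r3c, Ppp1r3d and Slc16a1. Ldha and Ppp1r3c are printed because they had the 2 highest RNAP2 strengths of the pathway and CACGTG before their starts, yet no BMAL1 region. BMAL1 peaks at Ldha were 3.49 and 1.87 at different places, and Ppp1r3c had BMAL1 peaks in replicate 1 alone, the highest at 3.39.
Ldha, before the start, chr7:46845554-46845803, plus strand: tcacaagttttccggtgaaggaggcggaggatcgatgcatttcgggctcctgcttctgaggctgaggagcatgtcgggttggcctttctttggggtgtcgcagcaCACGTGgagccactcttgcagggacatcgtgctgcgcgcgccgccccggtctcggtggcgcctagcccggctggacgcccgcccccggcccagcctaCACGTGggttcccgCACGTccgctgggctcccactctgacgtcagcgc
Ppp1r3c, before the start, chr19:36736654-36736854, minus strand: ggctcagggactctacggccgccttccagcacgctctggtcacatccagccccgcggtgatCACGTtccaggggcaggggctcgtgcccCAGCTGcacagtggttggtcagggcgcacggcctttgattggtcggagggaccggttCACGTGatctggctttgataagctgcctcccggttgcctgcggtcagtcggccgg

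A further 38 genes of the same pathway, isozymes of other tissues, glucose and pyruvate carriers and accessory enzymes, were read in the same way. RNAP2 regions were present at 24 of them, against 41% of the 21912 other protein-coding genes used above. REV-ERBα regions were present at 5, and at 4 of the 24 with RNAP2, against 8.39% of other genes. BMAL1 regions were present at 3, and at 2 of the 24, against 10.2%. Slc2a4, the insulin-responsive glucose transporter GLUT4, had REV-ERBα at 6.08 and 5.94, in a region nearest to Ybx2. Mpc1, a subunit of the mitochondrial pyruvate carrier, had REV-ERBα at 2.29 and 6.57 and BMAL1 at 9.42 and 3.18, both within 1 kb of its TSS. That BMAL1 value in replicate 1 was above every BMAL1 value of replicate 1 among the 38 glycolytic and glycogen genes. Pgm1, a phosphoglucomutase, had REV-ERBα at 4.96 and 2.91, Gys2, the liver glycogen synthase, had 3.02 and 3.18 without RNAP2, and Tigar, a fructose bisphosphatase, had 2.19 and 2.41. Pgk2, the testis phosphoglycerate kinase, had BMAL1 at 5.38 and 2.40 without RNAP2, and Tigar had BMAL1 at 3.0 and 1.87 in a region nearest to Fgf23.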

How the data were processed

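ChIP-seq of BMAL1 (ZT 4), RNAP2 (ZT 4) and REV-ERBα (ZT 8) from gastrocnemius was used, with 2 biological replicates each and 1 list of peaks per sample. Input DNA and read density were not used here. Per the labels and the methods, the authors aligned reads to mm10 with BWA, removed duplicate and multi-mapping reads, and called peaks with MACS2 2.1.1 against input at a p-value cutoff of 0.05. The −log10 p and −log10 q at each summit and the fold enrichment over input were used as the authors deposited them. The deposited score is −log10 p times 10 and was not used. Depth per peak is unknown, so no counting interval was given.

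Overlapping peaks (1 bp or more) were joined into regions. Genes and TSSs were those of GENCODE M21, with a window of 10 kb. All counts are descriptions, and no test was run. The 38 genes, the marker and pathway lists and the motifs were chosen with earlier results of these data known. Named genes are those with a BMAL1 or REV-ERBα region or a shared site, the 10 highest in RNAP2, those without RNAP2, both sides of the isozyme pairs, and further pathway genes with a region. The other members were named after their values were seen, so that all are accounted for. For Aldoa, which has 2 records in M21, the record with most exons was used. Alternatives were stricter p and q values, equal list lengths, other overlaps, windows, TSS sets and backgrounds, and leaving out each replicate. A marker gene of other cells is not reported here. The code was tested on simulated data. Python 3.11.15, numpy 2.4.6 and matplotlib 3.10.9 were used.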

Additional observations from a re-analysis of the deposited data

How the results depend on the processing

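No paired analysis was possible because the result comes from no test, and replicates of different factors were mapped separately. Counts over the 38 genes that moved by over 1.5 times are given below, beside some that did not. Unless stated otherwise, shares in brackets are of other genes with RNAP2 at the same setting, while the counts are over all 38 genes. With −log10 p of at least 3, BMAL1 regions were at 1 gene (0.919% of other genes with RNAP2) and shared sites at 2 (1.25%). With −log10 q of at least 1.3, REV-ERBα was at 3 genes (4.39%), BMAL1 at 0 (0.533%) and shared sites at 1 (0.751%). At equal list lengths BMAL1 was at 3 genes (3.15%). Within 1 kb of a TSS, REV-ERBα was at 6 genes (5.35%), BMAL1 at 3 (1.81%) and shared sites at 5 (1.39%). Leaving out a replicate of its own factor, so that 1 list alone counts, gave 21 (48.3%) to 35 (93.1%) genes for BMAL1, of which 35 is without replicate 1, and 23 (49.7%) to 27 (52.6%) for REV-ERBα. Shared sites ranged from 4 (1.32%) to 7 (1.73%) genes when a list was left out. RNAP2 was at 37 genes without replicate 1 (86.4% of all other genes) and without replicate 2 (76.8%). The median RNAP2 −log10 p over 37 genes was 9.19 without replicate 1 and 15.9 without replicate 2, against 9.89 over 32 genes. These single-list medians were not read for other genes. A class of genes with RNAP2 of at least 20, chosen after seeing the data, held REV-ERBα at 6 (33.2%) and BMAL1 at 3 (17.7%) of 10. These counts are out of 10 genes and so are not set against those over 38. In all, 34 planned and 9 added values moved by no more than 1.5 times, among them RNAP2 at 37 genes and shared sites at 7. The added values include shared sites at 6 of the 10 genes of that class (17.7%), which likewise cannot be set against a count over 38.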
